A study of Mus musculus with 6 samples.

Results

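Enzyme genes of glycolysis and gluconeogenesis were followed in kidney proximal tubule cells that had lost or kept Igf1r, the type 1 receptor of insulin-like growth factor. The genes were chosen by symbol, as 36 of the 52405 gene identifiers in the deposited table. They comprise 19 genes of glycolysis and lactate handling, 5 regulators of glycolytic flux, 6 genes of gluconeogenesis, and 6 genes of the malate-aspartate shuttle, alanine transamination and fructose entry. A total of 3 KO libraries came from mice with a proximal-tubule specific knockout of Igf1r, and 3 Ctr libraries from control mice, whose genotype the labels do not detail. All mice were adult C57BL/6 females with uninjured kidneys, and in both groups the ovaries had been removed at postnatal day 21. Cells were dissociated from kidney cortex and taken with magnetic beads against prominin-1, and libraries within a group are labelled as biological replicates, with no further word on separate animals. The sources used here do not give the driver of the recombination, the deleted exons or any pooling of animals.

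Glycolysis turns glucose into pyruvate, and lactate dehydrogenase links pyruvate to lactate. Gluconeogenesis runs the other way and bypasses the irreversible glycolytic steps with its own enzymes, phosphoenolpyruvate carboxykinase, fructose bisphosphatase and glucose 6-phosphatase. Beside the liver, the kidney is the organ known to release new glucose, and within the kidney this belongs to the proximal tubule, while glycolytic capacity is known to lie mainly in later nephron segments.

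Values are FPKM (fragments per kilobase of transcript and per unit of library size), so levels can be compared between genes, and differences are given as log2 of FPKM + 1, KO minus Ctr. The libraries held about 19.4 to 24.8 M reads each, if the smallest step between low values is taken as 1 read. That assumption was not checked, so the absolute depth is uncertain by a common factor, while the ratio does not depend on it: the deepest library had 1.278 times the reads of the shallowest. Igf1r itself, the targeted gene, stood at 4.78 to 7.67 FPKM in KO and 15.3 to 22.7 FPKM in Ctr. A list of 16 proximal tubule markers summed to 7737 to 8450 FPKM in KO and 7932 to 9371 FPKM in Ctr. The sodium-phosphate cotransporter Slc34a1 of the early proximal tubule stood at 2085 to 2392 FPKM in KO and 1935 to 2669 FPKM in Ctr, and the thick limb marker Umod was also present at 1234 to 2300 FPKM in KO and 1077 to 1522 FPKM in Ctr. The libraries numbered 1 stood apart from the others. The summed level of 5 podocyte markers was 206.0 FPKM in KO replicate 1 and 275 FPKM in Ctr replicate 1, against 6.91 to 12.6 FPKM in the other 4 libraries, and 6 endothelial markers summed to 129.6 FPKM in KO replicate 1 and 158.5 FPKM in Ctr replicate 1, against 12.1 to 19.3 FPKM elsewhere. Fewer cells of a type and less RNA per cell cannot be told apart in such bulk libraries.

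Pck1 and Pklr were picked after their values were seen to vary side by side across the libraries, as some other pathway genes did. Aldoc was picked as the tested enzyme gene whose groups did not overlap. The start regions of these 3 genes are shown here. Each is the RefSeq window of 300 bases on GRCm38.p6, from 250 bases before to 50 bases after a transcript start, on the plus strand, and capitals mark motif matches on either strand. For Pck1 it is chr2:173152823-173153122, for Pklr the downstream of the 2 listed starts at chr3:89136373-89136672, and for Aldoc the upstream of 2 starts at chr11:78322823-78323122.
Pck1: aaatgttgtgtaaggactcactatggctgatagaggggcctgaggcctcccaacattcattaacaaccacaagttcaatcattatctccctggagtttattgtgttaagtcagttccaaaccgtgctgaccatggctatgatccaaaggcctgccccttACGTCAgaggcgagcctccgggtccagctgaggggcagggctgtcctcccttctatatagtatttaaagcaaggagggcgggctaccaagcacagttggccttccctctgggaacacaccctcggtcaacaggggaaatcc
Pklr: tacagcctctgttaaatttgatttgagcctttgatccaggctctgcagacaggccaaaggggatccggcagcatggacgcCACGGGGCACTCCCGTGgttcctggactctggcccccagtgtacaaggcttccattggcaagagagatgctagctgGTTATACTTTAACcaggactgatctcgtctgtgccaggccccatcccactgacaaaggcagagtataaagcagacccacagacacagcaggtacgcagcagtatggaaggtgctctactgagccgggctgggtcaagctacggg
Aldoc: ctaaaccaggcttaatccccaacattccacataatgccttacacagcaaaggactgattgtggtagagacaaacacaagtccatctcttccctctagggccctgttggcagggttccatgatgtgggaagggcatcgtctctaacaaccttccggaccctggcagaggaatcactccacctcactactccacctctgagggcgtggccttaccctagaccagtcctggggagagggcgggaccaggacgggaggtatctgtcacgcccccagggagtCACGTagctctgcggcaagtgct

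The capitals of Pck1 are the core ACGTCA of a cyclic AMP response element at bases 160 to 165, a sequence that 7.51% of all 32851 windows of this length hold on either strand. In Pklr they are the pair CACGGG and CCCGTG of a carbohydrate response element, 5 bases apart at bases 81 to 97, a pattern spelled after this element and found in 1 window, its own. The second match in Pklr, at bases 157 to 169, is GTTA and TTAAC set 4 bases apart, a pattern for the hepatocyte factor HNF1 that 0.189% of windows hold. In Aldoc the capitals are ACGTG, the core of a hypoxia response element, read on the minus strand at bases 278 to 282. This 5-letter core is common. It stood in the windows of 17 of 35 matched enzyme genes, against 21.8% of all 27025 genes listed. The core ACGTCA stood in those of 8 of 35, against 8.37%, and matches of both cores may overlap. A match in any window of a gene counted. The 35 genes had 56 windows, more per gene than the 32851 of all genes, and the shares were not matched for this. The gene without a listed window is Gpt. A match is a description of the letters only.

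The cells held abundant transcripts of both pathways, with one isozyme dominant at most steps. The highest levels belonged to Pck1, the cytosolic phosphoenolpyruvate carboxykinase that commits carbon to glucose, at rank 36 of all genes by mean level, to Ldhb, the heart-type lactate dehydrogenase, at rank 43, and to Gapdh at rank 56. These 3 were the members with a mean of at least 1000 FPKM. Under 1 FPKM on average were Hk2, Slc16a3, Pfkfb1 and Eno2, all of which are known mainly from other tissues or from stimulated cells. The remaining 32 members were tested between the groups.

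**Figure D1:**
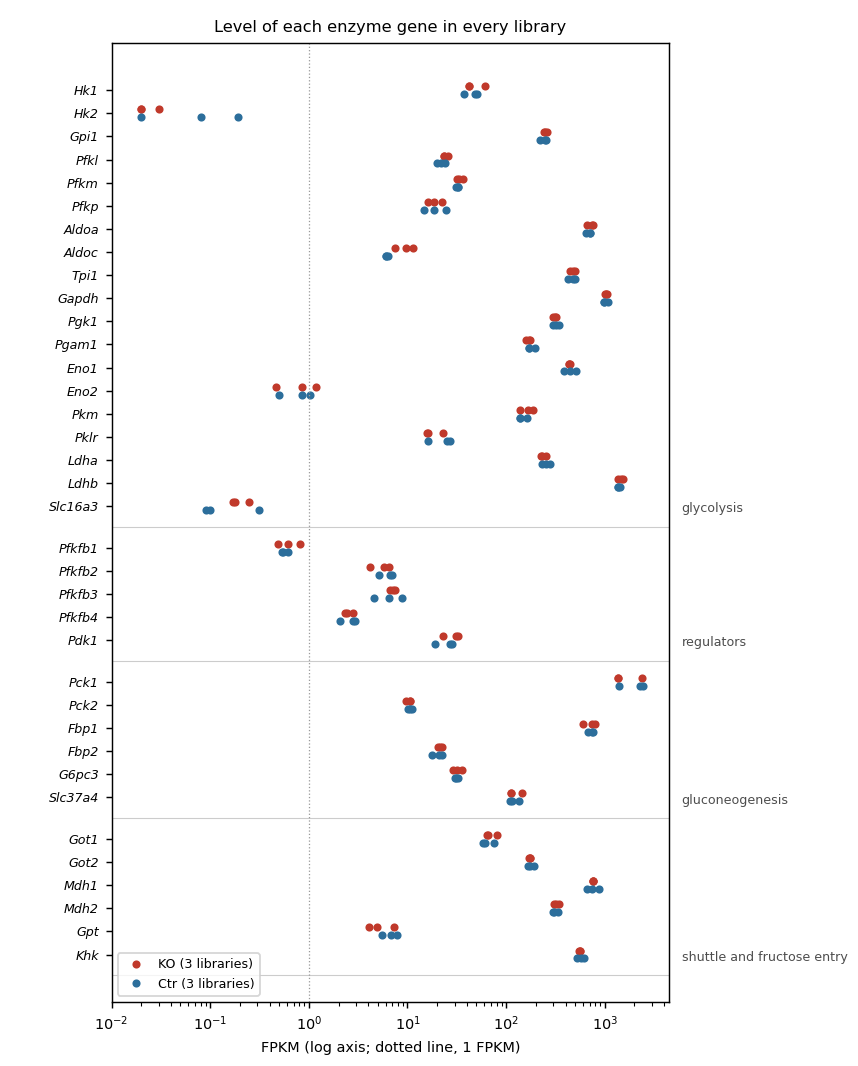
FPKM of the 36 enzyme genes on a log axis, 1 row per gene, with the 3 KO libraries (red) above the 3 Ctr libraries (blue). The genes range from Hk2, at most 0.19 FPKM, to Pck1, up to 2438 FPKM, and the groups overlap in all tested genes but Aldoc.

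Glucose phosphorylation rested on Hk1, the constitutive hexokinase bound to mitochondria. It had 41.8, 61.1 and 42.2 FPKM in KO replicates 1, 2 and 3 and 37.1, 50.9 and 47.9 FPKM in Ctr replicates 1, 2 and 3. The insulin-responsive muscle and fat isozyme Hk2 stood at 0.02 to 0.03 FPKM in KO and 0.02 to 0.19 FPKM in Ctr, the highest value being that of Ctr replicate 1. Of the summed FPKM of 5 hexokinase genes, Hk1 made up 94.12 to 97.04%. The next, Hkdc1, lay below Hk1 in all 6 libraries and its range did not meet that of Hk1.

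All 3 phosphofructokinase genes, which encode the main control step of glycolysis, were present at similar levels. The muscle-type Pfkm ranged from 31.6 to 36.5 FPKM in KO and from 30.8 to 32.8 FPKM in Ctr. The liver-type Pfkl ranged from 23.2 to 25.7 FPKM in KO and from 19.9 to 24.2 FPKM in Ctr, and the platelet-type Pfkp from 16.3 to 22.5 FPKM in KO and from 14.9 to 24.8 FPKM in Ctr. Pfkm lay above Pfkl in 6 of 6 libraries, while the ranges of Pfkl and Pfkp overlapped and Pfkl was the higher in 5 of 6.

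Among the aldolase genes of the list, the ubiquitous Aldoa had 755, 745 and 656 FPKM in KO replicates 1, 2 and 3 and 642, 702 and 708 FPKM in Ctr replicates 1, 2 and 3. A second identifier that carries the symbol Aldoa lies just upstream on chromosome 7, at 126800790 to 126809108, and had at most 0.61 FPKM. Aldoc, the brain-type aldolase, was far lower, with at most 11.4 FPKM in KO and 6.36 FPKM in Ctr.

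The steps from triose phosphate to phosphoenolpyruvate were served by abundant genes, with a second gene of sizeable level at the mutase step. Triose phosphate isomerase Tpi1 had 447 to 498 FPKM in KO and 420 to 499 FPKM in Ctr. Gapdh had 1001 to 1062 FPKM in KO and 977 to 1087 FPKM in Ctr. The phosphoglycerate kinase Pgk1 stood at 299 to 318 FPKM in KO and 300 to 343 FPKM in Ctr. Below it lay the mutase Pgam1, at 158 to 176 FPKM in KO and 169 to 195 FPKM in Ctr. Its muscle-type counterpart Pgam2, outside the 36, was present as well and took 26.2 to 37.2% of the summed FPKM of the pair. Among the enolases Eno1 made up 98.5 to 99.0%, and the neuronal Eno2 had 0.46 to 1.17 FPKM in KO and 0.5 to 1.02 FPKM in Ctr. Gpi1, which interconverts the hexose phosphates, had 241 to 261 FPKM in KO and 222 to 251 FPKM in Ctr.

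Reads of some of these genes cannot be separated with certainty from those of processed copies. Of the 36 genes, 10 had another annotated gene whose transcript aligned over at least 400 bases at 95% identity or more. The copies took 13.3% of the level of Pgk1, 9.51% of that of Eno1 and 9.10% of that of Pgam1. With the copies added, Pgk1 averaged 351 ± 14.8 FPKM in KO and 365 ± 26.6 FPKM in Ctr, and Eno1 averaged 478 ± 10.9 FPKM in KO and 490.1 ± 71.6 FPKM in Ctr (SD, n = 3 each).

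Pyruvate kinase and lactate dehydrogenase each came as an unequal isozyme pair. Pkm, the isozyme gene of muscle and most tissues, had 167, 189 and 139 FPKM in KO replicates 1, 2 and 3 and 137, 163 and 137 FPKM in Ctr replicates 1, 2 and 3. Pklr, the gene of liver and red cells, whose liver and kidney form is known to start downstream, had 15.9, 16.0 and 22.8 FPKM in KO and 16.0, 26.9 and 25.2 FPKM in Ctr. The table does not divide Pkm into its splice forms. Ldhb, whose subunit favours the use of lactate, had 1451, 1527 and 1363 FPKM in KO and 1354, 1347 and 1426 FPKM in Ctr, and made up 83.5 to 86.9% of lactate dehydrogenase FPKM. Ldha, whose subunit favours lactate formation, had 255, 231 and 226 FPKM in KO and 253, 233 and 281 FPKM in Ctr. The lactate exporter of glycolytic cells, Slc16a3, was at 0.17 to 0.25 FPKM in KO and 0.09 to 0.31 FPKM in Ctr.

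Gluconeogenic transcripts were high and came almost wholly from the cytosolic or liver-type genes. Pck1 (chromosome 2, 173153048 to 173159273) had 1349, 1375 and 2388 FPKM in KO replicates 1, 2 and 3 and 1388, 2438 and 2268 FPKM in Ctr replicates 1, 2 and 3, and it made up 99.2 to 99.6% of the pair with the mitochondrial Pck2. Pck2 itself was steady, at 9.71 to 10.6 FPKM in KO and 10.0 to 11.1 FPKM in Ctr. Fbp1, the liver-type fructose bisphosphatase, had 737, 597 and 791 FPKM in KO and 759, 674 and 745 FPKM in Ctr. The muscle-type Fbp2 lies beside Fbp1 on the minus strand of chromosome 13 (62836877 to 62858422 against 62864753 to 62888282) and took 2.54 to 3.28% of the pair, with 20.2 to 22.1 FPKM in KO and 17.6 to 22.3 FPKM in Ctr. For the last step, G6pc3, the ubiquitous glucose 6-phosphatase, had 28.6 to 35.8 FPKM in KO and 30.4 to 32.8 FPKM in Ctr. The gluconeogenic G6pc, outside the 36, had 200.2, 248 and 411 FPKM in KO and 225, 221 and 299 FPKM in Ctr. Slc37a4, which carries glucose 6-phosphate into the endoplasmic reticulum, had 112, 111 and 144 FPKM in KO and 115, 110.5 and 134 FPKM in Ctr.

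The shuttle enzymes were abundant in both compartments. The cytosolic malate dehydrogenase Mdh1 had 755 to 767 FPKM in KO and 667 to 869 FPKM in Ctr, and the mitochondrial Mdh2 had 304 to 347 FPKM in KO and 300 to 332 FPKM in Ctr. Among the aspartate aminotransferases the order was reversed, with the mitochondrial Got2 (171 to 176 FPKM in KO, 167 to 191 FPKM in Ctr) above the cytosolic Got1 (64.1 to 79.9 FPKM in KO, 57.7 to 75.1 FPKM in Ctr) in 6 of 6 libraries. The cytosolic alanine aminotransferase Gpt was low, with 4.04 to 7.26 FPKM in KO and 5.54 to 7.75 FPKM in Ctr. Khk, the ketohexokinase that starts fructose breakdown, had 541 to 559 FPKM in KO and 525 to 609 FPKM in Ctr.

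Regulators were expressed at low to moderate levels. The bifunctional kinase and phosphatase genes Pfkfb1 to Pfkfb4 set the amount of the fructose bisphosphate isomer that activates phosphofructokinase and inhibits fructose bisphosphatase. Pfkfb3, the form with the highest kinase share, had 6.59, 7.10 and 7.45 FPKM in KO and 4.54, 8.74 and 6.48 FPKM in Ctr. Pfkfb2, the heart form, ranged from 4.16 to 6.45 FPKM in KO and from 5.14 to 7.02 FPKM in Ctr, and did not separate from Pfkfb3 by range. Pfkfb4 ranged from 2.32 to 2.80 FPKM in KO and from 2.06 to 2.94 FPKM in Ctr. Pfkfb1, the liver form, was at 0.49 to 0.81 FPKM in KO and 0.54 to 0.61 FPKM in Ctr. Pdk1, a kinase that switches off pyruvate dehydrogenase, had 23.1, 30.9 and 32.1 FPKM in KO replicates 1, 2 and 3 and 18.9, 28.0 and 27.0 FPKM in Ctr replicates 1, 2 and 3. Each KO library thus exceeded the Ctr library of its own number, although the groups overlapped. How many of all genes tested showed this order was not counted. Without pairing, Pdk1 had a log2 change of 0.22 (limma unadjusted p = 0.27). Its paralogue Pdk2 was the most abundant of the 4 kinase genes in all 6 libraries, with 59.4 to 76.0% of their summed FPKM.

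Between KO and Ctr, 0 of the 32 tested genes passed the limma test at an adjusted p of 0.05, where 0.0235% of all 12770 genes tested did. At an unadjusted p under 0.05 there was 1 enzyme gene, Aldoc, where 3.51% of all genes lay. The count was 2 with replicate numbers as a block, the second being Pdk1 (log2 change 0.22, limma unadjusted p = 0.0281 and adjusted p = 0.878 with the block). It was also 2 without KO replicate 2 (Aldoc and Gpt), without KO replicate 3 (Aldoc and Pkm) and without Ctr replicate 1 (Aldoc and Pklr). Over all genes, 3 passed at the adjusted threshold, and this became 0 without KO replicate 3, Ctr replicate 1 or Ctr replicate 2, 1 without KO replicate 2 or Ctr replicate 3, and 4 without KO replicate 1. The enzyme genes stood near the background in both counts.

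Aldoc was the one tested gene whose groups did not overlap. It lies on chromosome 11 from 78322968 to 78327781 and had 7.4, 11.4 and 9.66 FPKM in KO replicates 1, 2 and 3, against 6.05, 6.36 and 6.12 FPKM in Ctr replicates 1, 2 and 3. The means were 9.47 ± 1.99 FPKM in KO and 6.18 ± 0.163 FPKM in Ctr (SD, n = 3 each), 53.4% higher in KO. The log2 change was 0.53 (SE 0.14, 95% interval 0.19 to 0.87, limma adjusted p = 1.0 and unadjusted p = 0.00781), so Aldoc did not pass over all genes. All 3 KO values lay above all 3 Ctr values for 3.89% of the genes tested, and the reverse order, which no enzyme gene showed, for 4.7%. In the abundant Aldoa the groups overlapped, with a log2 change of 0.07 (SE 0.08). The summed FPKM of 6 thick limb markers came to 1647, 2958 and 1684 FPKM in KO, against 1488, 2045 and 1941 FPKM in Ctr, replicates 1 to 3 in order. The highest Aldoc value, that of KO replicate 2, came from the library with the highest sum. KO replicate 3, with Aldoc at 9.66 FPKM, had a lower thick limb sum than Ctr replicates 2 and 3, with Aldoc at 6.36 and 6.12 FPKM. Sums of 5 distal convoluted tubule markers were 872, 1008 and 827.5 FPKM in KO and 820, 849.5 and 765.5 FPKM in Ctr. Those of 11 collecting duct markers were 787.5, 985 and 768 FPKM in KO and 574, 1015 and 928 FPKM in Ctr. The part of other segments in the Aldoc difference was not tested.

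**Figure D2:**
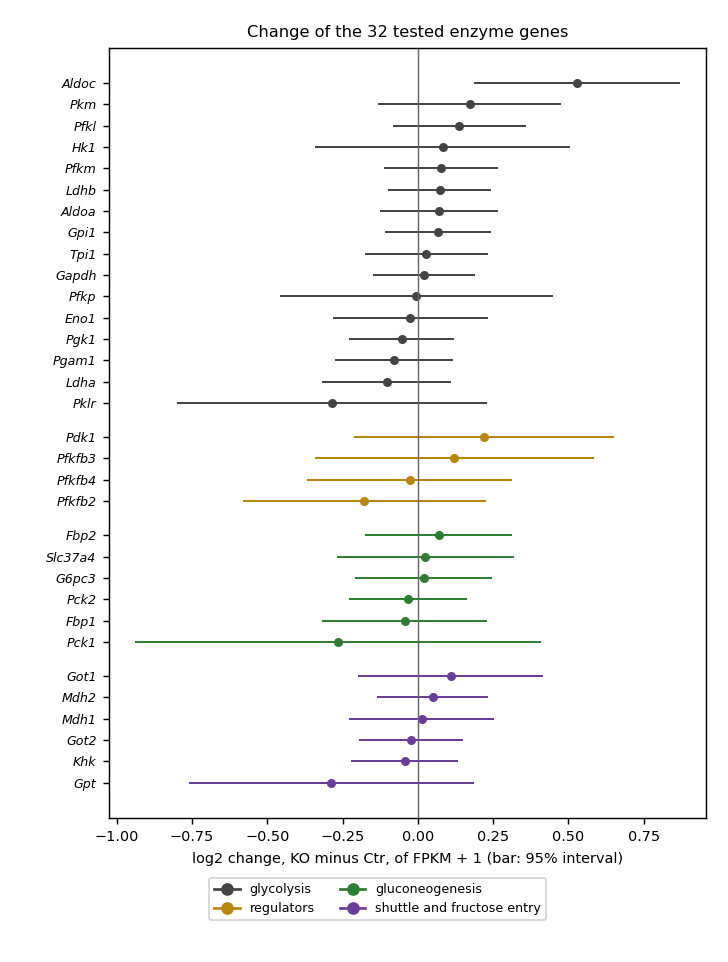
Log2 change of FPKM + 1, KO minus Ctr, with its 95% interval from limma for the 32 tested genes, ordered by size within each class. The interval of Aldoc, 0.19 to 0.87, is the one that leaves out 0, and Pck1, Pklr and Gpt have the widest intervals on the lower side.

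For most other enzymes the estimates were small. The difference of the means was under 10% of the Ctr mean for 24 of 32 genes and reached 25% for 1, Aldoc. For 24 of 32 the 95% interval lay within 0.5 of 0 on the log2 scale. These counts were not made over all genes tested, so they do not mark out enzyme genes. The median half-width of the interval was 0.24 for the enzyme genes and 0.29 for all genes tested. Gapdh, often used as a reference transcript, had a log2 change of 0.02 (95% interval -0.15 to 0.19). Ldhb was at 0.07 (-0.10 to 0.24), Mdh1 at 0.01 (-0.22 to 0.25) and Fbp1 at -0.04 (-0.31 to 0.23). Differences inside these intervals could not be told from 0.

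By class, 10 of 16 tested glycolysis genes had a higher estimate in KO (median log2 change 0.05) and 6 a lower one. Among regulators 2 of 4 were higher (median 0.05), and in gluconeogenesis 3 of 6 (median -0.01). Shuttle and fructose genes split 3 and 3 (median -0.005). Over all genes tested, 43.6% had a higher estimate and the median was -0.02. The spread within a class, from -0.29 to 0.53 in glycolysis, was larger than any class median. The signs of the medians were not stable. Leaving out 1 library moved the median from -0.02 to 0.17 for regulators, from -0.06 to 0.05 for gluconeogenesis and from -0.03 to 0.06 for shuttle and fructose genes. For glycolysis it moved from 0.002 to 0.09, and it was -0.0045 without both libraries numbered 1.

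The ratio of 2 enzymes inside 1 library does not depend on the total to which the library was scaled. Over 12 such pairs, all KO and Ctr ratios overlapped, and no pair reached the smallest p of the exact two-sided permutation test for 3 against 3 libraries, 0.1. Ldha over Ldhb was 0.1755, 0.151 and 0.166 in KO, against 0.187, 0.173 and 0.197 in Ctr. Its log2 ratio was -2.61 ± 0.11 in KO and -2.43 ± 0.09 in Ctr (SD, n = 3 each, difference -0.18, exact permutation p = 0.2, adjusted over the 12 pairs 0.686). Both the lowest values were from KO, and KO replicate 1 lay above Ctr replicate 2. With libraries paired by number, KO lay below Ctr in 3 of 3 pairs for Ldha/Ldhb, Gpt/Gpt2 and Hk2/Hk1 and above it in 3 of 3 for Pkm/Pklr. Hk2 had 0.02 FPKM in both KO replicate 2 and Ctr replicate 2, so that Hk2/Hk1 pair differed by Hk1 alone. These 4 of the 12 ratios gave an exact sign-flip p of 0.25, the smallest that 3 pairs allow. The paired test thus could not reach 0.05 either. With random signs, a share of 0.25 of ratios would keep 1 direction in all 3 pairs. The count of 4 of 12 lies near that share.

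Pkm over Pklr, which sets the general against the liver-type pyruvate kinase, was 10.5, 11.8 and 6.10 in KO and 8.56, 6.08 and 5.42 in Ctr (difference of log2 ratios 0.47, exact permutation p = 0.2, adjusted 0.686). Pck1 over Pkm, enzymes that act in opposite directions on phosphoenolpyruvate, was 8.08, 7.29 and 17.2 in KO and 10.1, 14.9 and 16.6 in Ctr (difference -0.44, exact permutation p = 0.4, adjusted 0.686). Fbp1 over Pfkl, the opposing pair at the fructose bisphosphate step, was 23.2 to 34.1 in KO and 30.8 to 38.1 in Ctr (difference -0.19, exact permutation p = 0.6, adjusted 0.873). The transcripts of the gluconeogenic partner thus exceeded those of the glycolytic one in all 6 libraries at both steps.

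**Figure D3:**
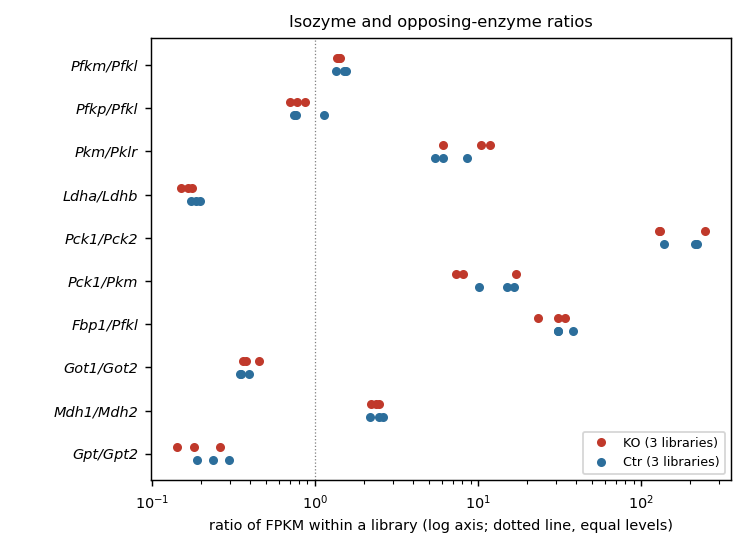
Ratio of FPKM of 2 enzyme genes within each library on a log axis, with KO libraries (red) above Ctr libraries (blue), for 10 of the 12 pairs (pairs with Hk2 and Eno2, which are under 1 FPKM, are left out). The ratios of the groups overlap in each pair, and Pck1/Pkm and Fbp1/Pfkl lie above 1 in all libraries.

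Of the sum of squares over the 6 libraries, the part within groups exceeded that between groups in all tested enzyme genes but Aldoc. The part within groups rests on more degrees of freedom, so this does not rank the 2 variances. Pck1 had the widest spread on the log2 scale (SD 0.43 over the 6 libraries), followed by Pklr and Aldoc (SD 0.34 each). The 3 libraries with low Pck1, KO replicates 1 and 2 and Ctr replicate 1, were also those with low Pklr, and the 3 with high Pck1 had high Pklr. Pck1 averaged 1704 ± 593 FPKM in KO and 2031 ± 564 FPKM in Ctr (SD, n = 3 each, log2 change -0.26, 95% interval -0.94 to 0.41), and Pklr averaged 18.3 ± 3.94 FPKM in KO and 22.7 ± 5.84 FPKM in Ctr (log2 change -0.29, 95% interval -0.80 to 0.23, limma adjusted p = 1.0 for both). G6pc was highest in KO replicate 3 and Ctr replicate 3, the libraries with the highest Slc37a4. It did not follow Pck1 in Ctr replicate 2, the library with the highest Pck1 and Pklr. There G6pc had 221 FPKM and Slc37a4 110.5 FPKM, near the low end of their ranges. Group accounted for 11.2% of the sum of squares of Pck1 and 21.0% of that of Pklr, against 72.3% for Aldoc. With 3 libraries a group, part of such a share arises without any group effect. For the other tested enzyme genes the share was at most 37.8%.

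Glycolysis genes varied with the library as well. Of the 16 tested, 7 had their highest value in KO replicate 2, among them Hk1, Pkm, Ldhb, Pfkl, Pfkm and Gpi1, and 9 had their lowest value in Ctr replicate 1. Another 6, Tpi1, Gapdh, Pgk1, Pgam1, Eno1 and Ldha, had their highest value in Ctr replicate 3. The same counts were not made over all 12770 genes tested, so they do not mark out glycolysis genes. KO replicate 2 also held the highest sums of thick limb markers, 2958 FPKM, and of 5 distal convoluted tubule markers (1008 FPKM, against 765.5 to 872 FPKM in the other 5 libraries). Ctr replicate 3 held the lowest distal convoluted tubule sum, 765.5 FPKM, and a thick limb sum of 1941 FPKM. Ctr replicate 1 held the lowest sum of thick limb markers and of 11 collecting duct markers (574 FPKM, against 768 to 1015 FPKM elsewhere). The part of these other segments in the enzyme levels was not tested. Without KO replicate 2 the log2 change of Hk1 was -0.09, against 0.08 with all libraries.

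**Figure D4:**
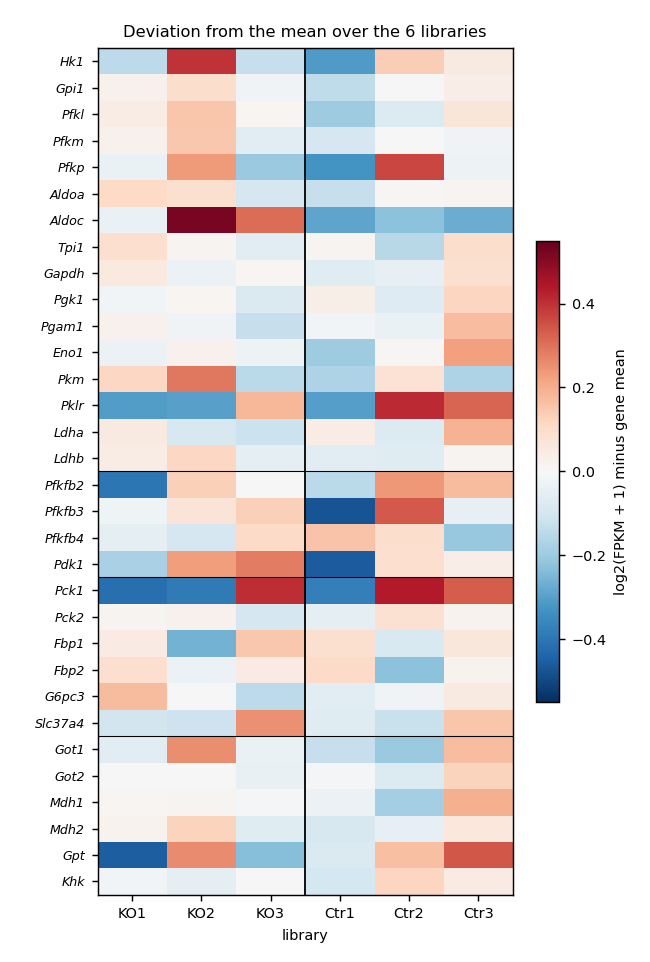
Deviation of log2(FPKM + 1) from the mean over the 6 libraries for the 32 tested genes (rows) in KO and Ctr libraries (columns). Pck1 and Pklr are low (blue) in KO1, KO2 and Ctr1, Aldoc is the one row whose 3 KO cells all exceed its 3 Ctr cells, and most glycolysis rows of Ctr1 are blue.

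Of 45 further genes of the same pathways, 38 were tested and 0 passed at an adjusted p of 0.05 by limma, with 15 higher and 23 lower estimates in KO (median log2 change -0.02). At an unadjusted p under 0.05 there were 2. Bpgm, which makes the bisphosphoglycerate that regulates haemoglobin, had 22.3, 20.6 and 19.99 FPKM in KO and 23.8, 24.5 and 24.7 FPKM in Ctr (log2 change -0.21, SE 0.07, limma adjusted p = 1.0). Hkdc1, a hexokinase-like gene, had 2.53, 2.37 and 2.08 FPKM in KO and 1.59, 1.87 and 1.38 FPKM in Ctr (log2 change 0.35, SE 0.14, limma adjusted p = 1.0). In both genes the groups did not overlap, as in 8.59% of all genes tested. Among the 38 genes, all 3 KO values lay above all 3 Ctr values in 1 and below them in 3. The groups overlapped in the remaining 34. Over all genes tested the shares were 3.89% above and 4.7% below. Ldhd, the D-lactate dehydrogenase, averaged 74.0 ± 4.50 FPKM in KO and 83.7 ± 6.95 FPKM in Ctr, and the mitochondrial glycerol phosphate dehydrogenase Gpd2 averaged 5.11 ± 0.295 FPKM in KO and 8.25 ± 3.25 FPKM in Ctr (SD, n = 3 each, log2 changes -0.17 and -0.53, limma adjusted p = 1.0 for both). Pcx, the pyruvate carboxylase that opens gluconeogenesis from lactate, averaged 146 ± 16.9 FPKM in KO and 146 ± 9.89 FPKM in Ctr.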

How the data were processed

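The authors deposited 1 table of FPKM values with 2 decimals for 52405 Ensembl identifiers in 6 libraries, 3 KO and 3 Ctr. Libraries were made with a directional kit, per the labels' protocols. The submitters' processing notes list DESeq2 1.28.1, RSEM and STAR 2.6.0c without roles. The sources used here do not give build, annotation or strand setting. The files hold no counts. FPKM is relative to each library's total.

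Coordinates are from GENCODE M21 (GRCm38), which holds 99.4% of the identifiers. Genes averaging 1 FPKM or more, 12770 in all, were tested as log2(FPKM + 1), a scale that understates changes of low genes, with limma 3.58.1 in R 4.3.3 (intensity trend, two-sided, Benjamini-Hochberg over all genes tested), after a check on simulated data. Within-library ratios were compared by exact permutation. Copies were sought with blastn 2.17.0. P-values measure the spread between these libraries only.

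Deviations from the group means correlated by 0.63, 0.29 and 0.37 between KO and Ctr libraries numbered 1, 2 and 3. KO replicate 2 correlated by 0.30 with Ctr replicate 3, no less than with Ctr replicate 2. The correlations thus matched only the libraries numbered 1 clearly. Pairing the libraries numbered 2 and 3 was an assumption, and the block and the paired ratios rest on it. Members, lists, ratios and alternatives were chosen with earlier results of these data known. The 36 members are all described. Of 45 other pathway genes those completing an isozyme family are named, plus 4 by smallest p. Pcx, Gpd1, Tkfc, Slc25a10 and the markers Slc34a1 and Umod were added after their values were seen. One further pathway gene and its ratio are not reported here.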

Additional observations from a re-analysis of the deposited data

How the results depend on the processing

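The 32 tested enzyme genes stayed above an adjusted p of 0.05 in every alternative in which they were tested (lowest limma adjusted p 0.648, for Aldoc without KO replicate 1). Pfkfb4 was not tested at a mean FPKM of at least 5. The 4 class medians moved by less than the spread between libraries, although each changed sign in at least 1 alternative. The log2 change of Aldoc ran from 0.40 to 0.68 when a library was left out (limma adjusted p from 0.648 to 1.0), and its unadjusted p stayed under 0.05 in each alternative. With the replicate block, 2 enzyme genes had an unadjusted p under 0.05 in place of 1, and the block changed no other call of an enzyme gene. Leaving out 1 library gave 1 to 2. The number of genes called among all tested was 3, and was 1 at a mean FPKM of at least 5, 6 without both libraries numbered 1, and 0 to 4 when 1 library was left out.

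Of the 447 alternative log2 changes of enzyme genes, 411 kept their direction and 36, in 16 genes, changed sign, all of them uncalled and at most 0.18 in size. When scaled to the nuclear total, the value was -0.0004 for Mdh1. With median-of-ratios scaling, the value was 0.011 for Pfkp. With quantile normalization, the value was 0.015 for Pfkp, -0.039 for Tpi1 and -0.040 for Mdh1. Without both libraries numbered 1, the value was -0.013 for Aldoa, -0.031 for Gapdh, -0.045 for Pfkfb3, 0.063 for Pfkfb4, -0.087 for G6pc3 and -0.0018 for Mdh1. When 1 library was left out, the changes ran from -0.172 to 0.178 for Pfkp, -0.041 to 0.083 for Tpi1, -0.0096 to 0.068 for Gapdh, -0.063 to 0.095 for G6pc3, -0.095 to 0.175 for Hk1, -0.139 to 0.043 for Pfkfb4, -0.128 to 0.075 for Fbp1, -0.066 to 0.0043 for Pck2, -0.094 to 0.107 for Slc37a4, -0.086 to 0.321 for Pfkfb3, -0.028 to 0.138 for Fbp2, -0.077 to 0.114 for Mdh1, -0.103 to 0.0039 for Khk, -0.129 to 0.082 for Eno1 and -0.066 to 0.032 for Got2. The difference in log2 ratios ran from -0.257 to 0.049 for Pfkp/Pfkl, -0.364 to 0.408 for Eno2/Eno1 and -0.116 to 0.023 for Mdh1/Mdh2. The cause of these shifts was not tested. Genes under 1 FPKM rest on few reads, and 3 libraries a group leave small changes undetected.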

Other observations

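The genes named here were chosen after their values were seen. Gpd2, the mitochondrial glycerol phosphate dehydrogenase, had 4.92, 4.96 and 5.45 FPKM in KO replicates 1, 2 and 3 and 4.50, 10.0 and 10.2 FPKM in Ctr replicates 1, 2 and 3. Tkfc, the triokinase that follows ketohexokinase, had 131, 141 and 171 FPKM in KO and 116, 191 and 197 FPKM in Ctr. In both genes Ctr replicate 1 lay with the KO libraries and below the other Ctr libraries. The mitochondrial pyruvate carrier subunits varied little, with 335 to 343 FPKM in KO and 319 to 337 FPKM in Ctr for Mpc1, and 403 to 426 FPKM in KO and 403 to 404 FPKM in Ctr for Mpc2.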
